A study of Mus musculus with 4 samples.

Results

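Costimulatory receptors are the surface proteins that pass the signal of a T cell's partner cell alongside that of its antigen receptor, and 7 of them were followed here in T cells sorted from tumors. They were Tnfrsf4 (OX-40), Tnfrsf9 (CD137 or 4-1BB), Tnfrsf18 (GITR), Cd27, Icos, Cd28 and Cd226 (DNAM-1), taken by their gene symbols from the 32285 genes of the count tables, where each occurred once in all 4 libraries. The same cells carried oligonucleotide-tagged antibodies, and 7 of the 197 named tags recognise these receptors. The libraries were made by CITE-seq, which counts unique molecular identifiers (UMIs) of mRNA and of antibody tags in the same droplets, from live CD3+ cells sorted from subcutaneous tumors of male C57BL/6J mice that were 6 weeks old at injection. The injected cells were 105K, a Tsc2-deficient line from a mouse kidney tumor, which carried either a non-targeting hairpin (sh-NC, 2 libraries) or 1 hairpin against B7-H3, an immune checkpoint protein encoded by Cd276 (sh-B7-H3 (1), 2 libraries). The hairpin was in the tumor cells and the mice themselves were wild type, so the T cells compared differ in the tumor they came from. For each group 80 tumors were pooled and the sorted cells were loaded in duplicate lanes according to the series' own description. The study's text treats the libraries as separate biological samples, though its methods also describe pooling the tumors of each group before sorting and loading onto a single lane. Read as lanes, each test below speaks of these 2 pools and its spread may be technical. Which reading holds could not be settled from the files.

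A T cell needs costimulation together with antigen to divide, survive and make cytokines. Cd28 and Cd27 are present on resting T cells and support priming, whereas Icos, Tnfrsf4, Tnfrsf9 and Tnfrsf18 appear on most conventional T cells only after activation and are held at high level by regulatory T cells, the Foxp3-expressing cells that restrain immunity. The TNF receptor members signal through TRAF adaptors to NF-kappaB, Cd28 and Icos through phosphoinositide 3-kinase, and Cd226 binds CD155 (Pvr) and CD112 (Nectin2) in competition with the inhibitory receptor Tigit.

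The 4 libraries held 7030 to 12112 called barcodes and 79224898 to 132820909 RNA UMIs, and 2993 to 6201 cells per library were kept, with a median of 6373 to 8332 UMIs. Cells were called by their own RNA as Cd4 (at least 1 Cd4 UMI, at most 1 Cd8a or Cd8b1 UMI, no Foxp3), Cd8 (at least 3 Cd8a and Cd8b1 UMIs together, no Cd4 or Foxp3) or Foxp3 (at least 1 Foxp3 UMI, at most 1 Cd8a or Cd8b1 UMI). In the order sh-NC 1, sh-NC 2, sh-B7-H3 (1) 1 and sh-B7-H3 (1) 2, used throughout, there were 1774, 1470, 848 and 1098 Cd4 cells, 2601, 2306, 1115 and 1552 Cd8 cells, and 351, 322, 221 and 245 Foxp3 cells. Of the T cell genes that did not choose the cells, Trac and Trbc2 were detected in every class and library. The Foxp3 cells carried Il2ra at 230.3 to 327 CPM (UMIs of the gene per 1000000 UMIs of the class), Ikzf2 at 773 to 1021 and Ctla4 at 275 to 317, all 3 genes playing no part in the call. Of the 3 NK cell genes, Ncr1 was at 0 in all 3 classes and Klrb1c at 0 to 0.944 CPM. The third, Eomes, which T cells can also express, made up nearly all of the list's sum, which was 15.8, 17.0, 96.7 and 83.4 CPM in Cd4 cells and 28.6, 29.8, 83.7 and 72.1 CPM in Cd8 cells. The 2 gamma-delta T cell markers summed to 12.4, 8.42, 38.0 and 42.3 CPM in Cd4 and 8.66, 12.9, 41.6 and 42.1 CPM in Cd8 cells. The 5 regulatory T cell markers summed to 72.0, 79.7, 263 and 261 CPM in Cd4 and 24.9, 32.3, 121 and 119.9 CPM in Cd8 cells. All 3 lists were higher in sh-B7-H3 (1) in both classes, and their part in the group differences was not tested, apart from the exclusion of Il2ra and Ikzf2 cells from the Cd4 class given with the cell states. The knocked-down gene cannot be checked in T cells, where the kept cells held 0, 1, 1 and 1 Cd276 UMIs. The same barcode sequence occurred in 2 libraries for 17 to 35 barcodes per pair of libraries.

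Of the inducible receptors, 3 lie on chromosome 4 (GRCm38), Tnfrsf9 at chr4:150914562-150946102, Tnfrsf4 at chr4:156013843-156016612 and Tnfrsf18 at chr4:156026164-156028895, all on the plus strand, and 9551 bases separate Tnfrsf4 from Tnfrsf18. The sequences around their starts are given because Tnfrsf9 had the largest group differences of the 7 receptors in Cd4 and Cd8 cells and the other two are neighbours that were both high in Foxp3 cells. Each window runs from 250 bases before to 50 after a RefSeq start (GRCm38.p6), 5′ to 3′ on the gene's strand, and capitals mark matches on either strand to the AP-1 motif TGANTCA, the NF-kappaB consensus or the NFAT core GGAAA.
Tnfrsf9, upstream start, chr4:150919905-150920204: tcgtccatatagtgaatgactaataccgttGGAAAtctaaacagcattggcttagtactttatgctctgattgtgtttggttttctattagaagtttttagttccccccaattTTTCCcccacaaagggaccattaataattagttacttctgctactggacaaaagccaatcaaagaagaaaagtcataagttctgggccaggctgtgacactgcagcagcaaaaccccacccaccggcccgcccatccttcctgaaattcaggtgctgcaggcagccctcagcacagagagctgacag
Tnfrsf9, downstream start, chr4:150927749-150928048: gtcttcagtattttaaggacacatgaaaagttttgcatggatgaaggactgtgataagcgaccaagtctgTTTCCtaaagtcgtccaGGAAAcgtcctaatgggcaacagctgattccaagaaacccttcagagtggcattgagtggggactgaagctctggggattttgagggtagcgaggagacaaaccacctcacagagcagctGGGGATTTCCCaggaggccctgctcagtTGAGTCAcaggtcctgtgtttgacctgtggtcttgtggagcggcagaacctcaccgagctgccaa
Tnfrsf4, chr4:156013445-156013744: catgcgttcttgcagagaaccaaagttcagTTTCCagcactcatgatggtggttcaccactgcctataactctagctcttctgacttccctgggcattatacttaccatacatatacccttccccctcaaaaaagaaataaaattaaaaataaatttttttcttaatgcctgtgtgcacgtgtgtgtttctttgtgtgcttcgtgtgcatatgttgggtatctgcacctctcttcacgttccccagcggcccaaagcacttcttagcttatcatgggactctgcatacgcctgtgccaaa
Tnfrsf18, chr4:156026072-156026371: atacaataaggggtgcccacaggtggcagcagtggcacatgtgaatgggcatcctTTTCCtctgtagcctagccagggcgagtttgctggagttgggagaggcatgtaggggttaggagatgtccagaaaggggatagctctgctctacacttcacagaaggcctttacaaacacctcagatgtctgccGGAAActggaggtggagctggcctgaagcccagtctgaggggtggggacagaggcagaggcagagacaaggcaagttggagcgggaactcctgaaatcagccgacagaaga
Counting back from the start, the downstream Tnfrsf9 window held an NF-kappaB match from -43 to -34, which overlaps a second one and an NFAT core, and an AP-1 match from -15 to -9. None of the other 3 windows shown held an AP-1 or NF-kappaB match. All 4 held at least 1 NFAT core. Over the 32851 promoter windows of the table, 7.81% held AP-1, 8.46% NF-kappaB and 61.3% the NFAT core, so the last is common. A match is a description of the letters and not a measured binding site.

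Icos lies at chr1:60977927-61000320 on the plus strand, 204567 bases beyond Cd28 at chr1:60716800-60773359, Cd27 lies at chr6:125232622-125237010 on the minus strand, and Cd226 is on chromosome 18. Tnfrsf9 overlaps Camta1 on the other strand, Tnfrsf18 overlaps Gm16008, Icos overlaps Gm37039 on its own strand and Cd27 overlaps Vamp1. Whether strand was used in counting is not given in the sources used here, and a share of the UMIs of these 4 receptors could belong to the overlapping gene.

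Across the 3 classes, the 4 inducible receptors were highest in Foxp3 cells, whereas Cd226 was highest in Cd8 cells and Cd27 was not called in either class comparison. The levels below are CPM within the summed RNA of a class and are compared within a gene only. Tnfrsf4, which binds OX-40 ligand and supports the survival of activated and regulatory T cells, was at 998, 1011, 1128 and 984 CPM in Foxp3 cells, 59.1, 63.1, 66.4 and 73.0 CPM in Cd4 cells and 2.57, 4.99, 8.99 and 7.43 CPM in Cd8 cells. No library of 1 class overlapped another class. Foxp3 cells exceeded Cd4 cells 13.7-fold (log2 difference 3.78, SE 0.14, adjusted p = 2.91e-10, edgeR quasi-likelihood test over all genes with the library as a block and Benjamini-Hochberg adjustment), and Cd8 cells lay below Cd4 cells by 10.9-fold (log2 difference -3.45, SE 0.18, adjusted p = 9.76e-09). The Cd8 level of Tnfrsf4 rests on 60, 106, 73 and 87 UMIs and is far under the 74.1 to 102 CPM found in barcodes of at most 100 UMIs, which hold free RNA.

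**Figure D1:**
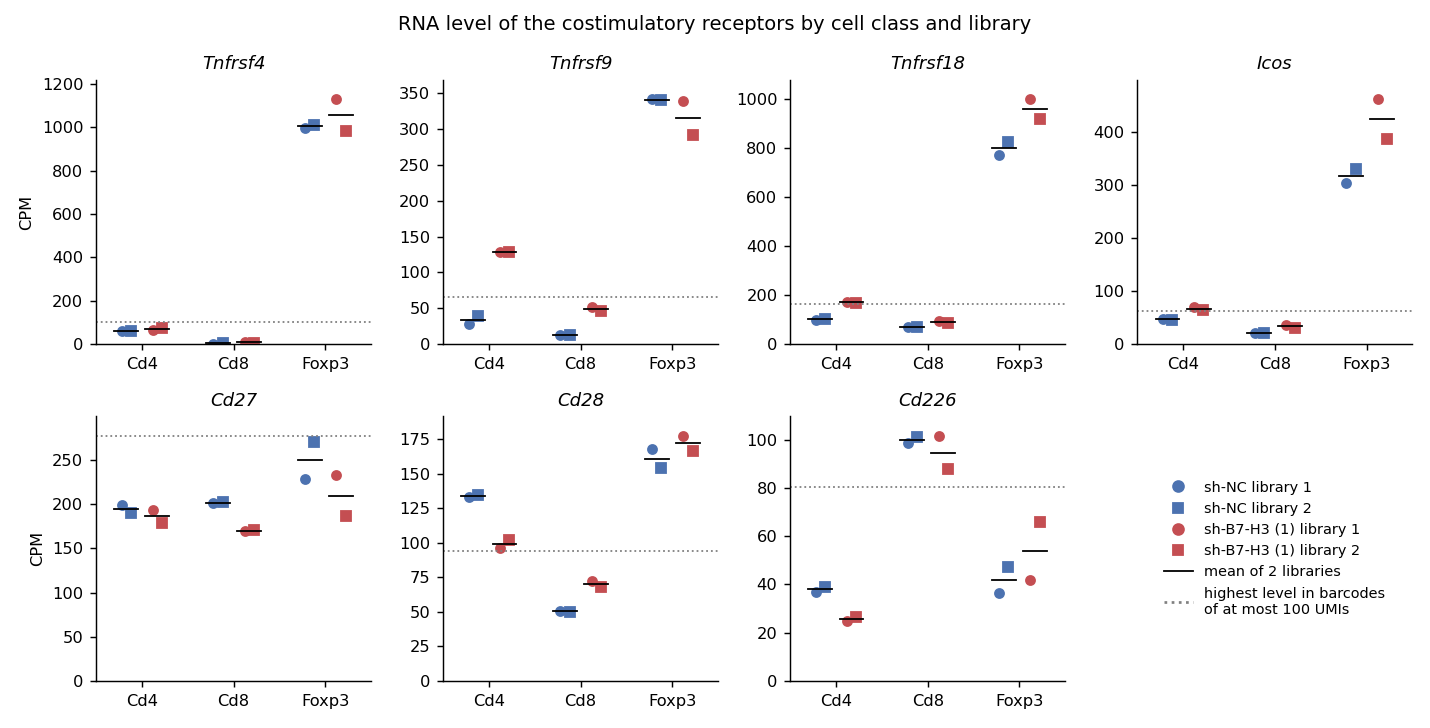
Level of the 7 receptors in Cd4, Cd8 and Foxp3 cells, in CPM of the class, 1 panel per gene. Each point is 1 library (blue sh-NC, red sh-B7-H3 (1), circle library 1, square library 2), the short line is the group mean, and the dotted line is the highest level in barcodes of at most 100 UMIs. Tnfrsf4 runs from 984 to 1128 in Foxp3 cells and from 2.57 to 8.99 in Cd8 cells, and Cd226 is the receptor with its highest levels in Cd8 cells.

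Tnfrsf18, whose product GITR is a constant feature of regulatory T cells, was at 775, 828, 1000.1 and 918 CPM in Foxp3 cells, against 100.2, 105, 173 and 170.1 CPM in Cd4 cells (5.76-fold, log2 difference 2.52, SE 0.08, adjusted p = 4.43e-11). Icos, the inducible relative of Cd28, was at 305, 329.7, 462 and 388 CPM in Foxp3 cells and 47.9, 46.5, 70.2 and 63.9 CPM in Cd4 cells (5.67-fold, log2 difference 2.50, SE 0.06, adjusted p = 6.53e-12). Tnfrsf9, which marks recently activated T cells, was at 341, 339.6, 338 and 291 CPM in Foxp3 cells and 28.3, 39.5, 128 and 128 CPM in Cd4 cells (4.55-fold, log2 difference 2.18, SE 0.32, adjusted p = 1.35e-04). For each of these 3 receptors every Foxp3 value lay above every Cd4 value. Tnfrsf9 had the widest SE of the 3, and its Cd4 level differed between the groups.

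In Cd8 cells the other 3 inducible receptors were also lower than in Cd4 cells. The log2 difference was -0.60 for Tnfrsf18 (SE 0.08, adjusted p = 6.78e-05), -0.94 for Icos (SE 0.06, adjusted p = 8.88e-08) and -1.26 for Tnfrsf9 (SE 0.32, adjusted p = 0.0125), the last no longer called without the library block (adjusted p = 0.222). Cd28, the receptor for Cd80 and Cd86, was at 50.4, 50.3, 72.4 and 67.8 CPM in Cd8 cells and 133, 135, 96.6 and 102 CPM in Cd4 cells (log2 difference -0.84, SE 0.14, adjusted p = 5.03e-04). Cd226 went the other way, with 98.4, 101, 101 and 87.7 CPM in Cd8 cells and 37.0, 38.8, 24.7 and 26.4 CPM in Cd4 cells, 3.35-fold higher (log2 difference 1.74, SE 0.13, adjusted p = 7.03e-07). Cd27, the receptor for CD70 that sustains early responses, was at 169.5 to 202 CPM in Cd8, 179 to 199.6 CPM in Cd4 and 187 to 271 CPM in Foxp3 cells, and these ranges overlapped.

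In all, 4 of the 7 receptors were called between Foxp3 and Cd4 cells, where 30.3% of all 11867 genes tested were called, and 6 of 7 between Cd8 and Cd4 cells, where 20.0% were called. Cd27, Cd28 and Cd226 were not called between Foxp3 and Cd4 cells (log2 differences 0.06, 0.29 and 0.32, adjusted p = 0.525, 0.157 and 0.208). With no filter on low counts Cd28 was called, at 0.25 (edgeR, adjusted p = 0.00328). The median log2 difference of the receptors was 2.18 for Foxp3 against Cd4 cells, with -0.03 over all genes, and -0.84 for Cd8 against Cd4 cells, with -0.01 over all genes. With library totals in place of TMM factors (trimmed mean of M values), the median of all genes moved by 0.21 and all 7 receptors were called, higher, between Foxp3 and Cd4 cells, along with 4205 of 11867 genes, of which 3390 were higher.

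The main question was how the receptors differ between T cells of B7-H3 knockdown and control tumors. It was tested with edgeR on the 4 library sums of a class without a block and with the library as a block for interaction terms. In both conventional classes Tnfrsf9 was the receptor with the largest increase. In Cd4 cells it was at 28.3 and 39.5 CPM in sh-NC and 128 and 128 CPM in sh-B7-H3 (1), and in Cd8 cells at 12.5 and 12.8 against 51.2 and 46.4 CPM, without overlap in either class. Free RNA, read from barcodes of at most 100 UMIs, moved the same way, with Tnfrsf9 at 31.3 and 32.3 CPM in sh-NC and 64.1 and 66.0 CPM in sh-B7-H3 (1). Every Cd8 level lay under the free RNA level of its own library, as did the Cd4 level of sh-NC 1. So did every Cd8 level of Tnfrsf4, Tnfrsf18, Icos, Cd27 and Cd28 and every Cd4 level of Tnfrsf4, Cd27 and Cd226. The Cd4 level lay under free RNA in the sh-NC libraries only for Tnfrsf18 and in sh-NC 2 only for Icos. In Foxp3 cells Cd226 lay under free RNA except in sh-B7-H3 (1) 2, and Cd27 except in sh-B7-H3 (1) 1. Free RNA of Tnfrsf4, Icos, Cd28, Cd27 and Cd226 also differed between the groups without overlap. It was at 74.1 and 88.1 CPM in sh-NC and 102.4 and 88.5 CPM in sh-B7-H3 (1) for Tnfrsf4. It was at 47.0 and 48.0 against 59.4 and 63.6 CPM for Icos and 85.5 and 82.8 against 91.0 and 94.0 CPM for Cd28. It was at 254 and 277 against 223 and 219 CPM for Cd27 and 80.5 and 74.0 against 63.4 and 60.8 CPM for Cd226. The part of free RNA in the group differences of these receptors was not tested. The log2 difference was 1.82 (SE 0.08, 95% interval 1.65 to 1.99, adjusted p = 2.61e-17) in Cd4 cells and 1.85 (SE 0.08, adjusted p = 2.49e-18) in Cd8 cells. In Foxp3 cells no such increase was found, with 341 and 339.6 against 338 and 291 CPM (log2 difference -0.13, 95% interval -0.30 to 0.03, adjusted p = 0.403). It was called lower with a mitochondrial limit of 10% (-0.27, adjusted p = 0.0393). The Foxp3 difference itself was lower than the Cd4 difference by a log2 value of -1.95 (SE 0.11, adjusted p = 1.71e-18, interaction term), and the Cd8 difference matched the Cd4 one within its error (0.01, SE 0.12, adjusted p = 0.985).

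**Figure D2:**
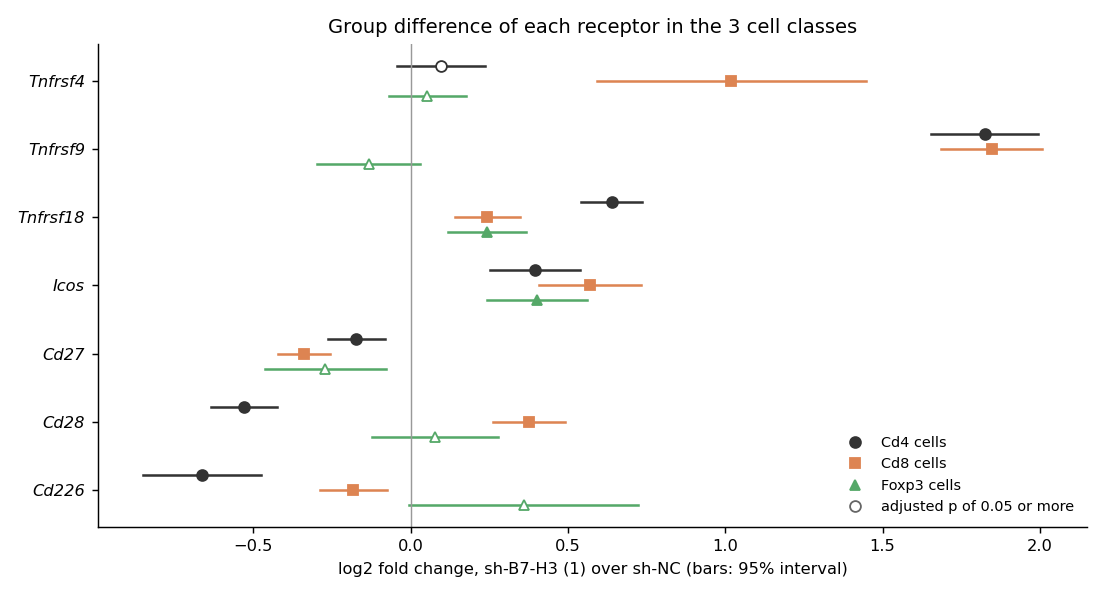
Log2 difference of sh-B7-H3 (1) from sh-NC for the 7 receptors in Cd4, Cd8 and Foxp3 cells, with 95% intervals from the edgeR fit. Open symbols have an adjusted p of 0.05 or more. Tnfrsf9 stands at 1.82 in Cd4 and 1.85 in Cd8 cells and at -0.13 in Foxp3 cells, whereas Icos lies above 0 in all 3 classes.

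Icos and Tnfrsf18 were higher in the sh-B7-H3 (1) libraries in all 3 classes. For Icos the sh-NC and sh-B7-H3 (1) means were 47.2 ± 0.967 and 67.1 ± 4.41 CPM in Cd4 cells (SD, n = 2 libraries each, as for all means), 20.9 ± 0.0765 and 33.5 ± 2.89 CPM in Cd8 cells, and 317 ± 17.7 and 425 ± 52.4 CPM in Foxp3 cells. Its log2 differences were 0.39 (SE 0.07, adjusted p = 2.77e-05), 0.57 (SE 0.08, adjusted p = 5.41e-07) and 0.40 (SE 0.08, adjusted p = 2.52e-04), and the groups overlapped in no class. Without sh-B7-H3 (1) 1 the Foxp3 difference of Icos was 0.28 (adjusted p = 0.0514). Tnfrsf18 rose most in Cd4 cells, from 102 ± 3.08 to 171 ± 1.76 CPM (log2 difference 0.64, SE 0.05, adjusted p = 2.46e-12), against 0.24 in Cd8 cells (SE 0.05, adjusted p = 2.32e-04) and 0.24 in Foxp3 cells (SE 0.06, adjusted p = 0.00643). The Cd4 difference of Tnfrsf18 exceeded the other two by the interaction term (-0.40, SE 0.07, adjusted p = 1.01e-04 for Cd8 and -0.39, SE 0.07, adjusted p = 3.10e-05 for Foxp3). The Foxp3 call of Tnfrsf18 was lost without sh-NC 1, without sh-B7-H3 (1) 1, with a mitochondrial limit of 10% and with at least 2 Foxp3 UMIs.

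Tnfrsf4 was called between the groups in Cd8 cells. In Cd8 cells it was at 2.57 and 4.99 CPM in sh-NC and 8.99 and 7.43 CPM in sh-B7-H3 (1), a log2 difference of 1.02 (SE 0.21, adjusted p = 1.84e-04) that was 0.61 without sh-NC 1 and 1.53 without sh-NC 2. In Cd4 cells, at 59.1 and 63.1 against 66.4 and 73.0 CPM, the log2 difference was 0.10 (95% interval -0.04 to 0.23, adjusted p = 0.269), and in Foxp3 cells, where the groups overlapped, it was 0.05 (95% interval -0.07 to 0.17, adjusted p = 0.723). The Cd8 difference exceeded the Cd4 one by 0.92 (SE 0.21, adjusted p = 0.00330). That interaction was not called without sh-NC 1 (0.56), without sh-B7-H3 (1) 1 (0.72) or with DESeq2. The Cd4 value of Tnfrsf4 was called under 5 alternatives, at 0.24 without doublet removal, 0.20 without TMM factors, 0.18 with a mitochondrial limit of 10%, and 0.17 both without an upper limit on genes and with the lineage set by tags.

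Cd28 moved in opposite directions in the 2 conventional classes. It was lower in sh-B7-H3 (1) Cd4 cells, at 133 and 135 against 96.6 and 102 CPM (log2 difference -0.53, SE 0.05, adjusted p = 9.35e-10), and higher in sh-B7-H3 (1) Cd8 cells, at 50.4 and 50.3 against 72.4 and 67.8 CPM (0.38, SE 0.06, adjusted p = 1.53e-06). The Cd8 difference minus the Cd4 difference was 0.90 (SE 0.08, adjusted p = 2.00e-11), and that of Foxp3 minus Cd4 cells was 0.62 (SE 0.10, adjusted p = 2.51e-05). In Foxp3 cells Cd28 itself was at 168 and 154 against 177 and 167 CPM (0.08, adjusted p = 0.767).

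Cd27 and Cd226 had negative log2 differences in both conventional classes. Only Cd226 in Cd4 cells and Cd27 in Cd8 cells were lower in both sh-B7-H3 (1) libraries without overlap. Cd226 fell from 37.9 ± 1.25 to 25.5 ± 1.20 CPM in Cd4 cells (log2 difference -0.66, SE 0.09, adjusted p = 6.65e-07). In Cd8 cells, where Cd226 was highest, its values of 98.4 and 101 against 101 and 87.7 CPM overlapped, and its small difference (-0.18, SE 0.05, adjusted p = 0.00475) was not called without sh-B7-H3 (1) 2 (-0.07), with DESeq2 (-0.18) or without TMM factors (-0.09). Cd27 was at 201 and 202 against 169.5 and 170.5 CPM in Cd8 cells (-0.34, SE 0.04, adjusted p = 4.12e-08). In Cd4 cells it was at 199.6 and 189 against 194 and 179 CPM, and the difference of -0.17 (SE 0.04, adjusted p = 0.00226) was lost without sh-NC 1, without sh-B7-H3 (1) 2, with DESeq2, without TMM factors and without cells holding Il2ra or Ikzf2 UMIs (-0.062). In Foxp3 cells Cd27 stood at 228 and 271 against 232 and 187 CPM (-0.27, adjusted p = 0.0740) and Cd226 at 36.5 and 47.3 against 42.0 and 65.8 CPM (0.36, adjusted p = 0.280), overlapping in both cases. Cd27 was called there without sh-NC 1 (-0.39), without sh-B7-H3 (1) 1 (-0.43) and with the lineage set by tags (-0.31), and Cd226 without sh-B7-H3 (1) 1 (0.64). Myeloid markers summed to 787, 128, 167 and 201 CPM in Foxp3 cells, highest in sh-NC 1. The Foxp3 difference of Cd226 exceeded that of Cd4 cells by 1.04 (SE 0.21, adjusted p = 3.79e-04), which was not called without sh-B7-H3 (1) 2, and the Cd8 difference exceeded it by 0.47 (SE 0.12, adjusted p = 0.0134), not called without sh-B7-H3 (1) 1, with DESeq2 or with the lineage set by tags (0.38).

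Read against the background, 6 of 7 receptors were called in Cd4 cells (3 higher, 3 lower) where 42.4% of all genes were called (21.6% higher, 20.8% lower), 7 of 7 in Cd8 cells (5 higher, 2 lower) where 43.6% were called (22.1% higher, 21.5% lower), and 2 of 7 in Foxp3 cells (both higher) where 7.04% were called, 3.56% higher. With a log2 difference of at least 1 as well, 1 receptor passed in Cd4 cells (Tnfrsf9, background 10.7%), 2 in Cd8 cells (Tnfrsf9 and Tnfrsf4, background 9.25%) and none in Foxp3 cells (background 1.36%, edgeR; 3 receptors had an unadjusted p under 0.05). DESeq2 called 5, 6 and 2 receptors in Cd4, Cd8 and Foxp3 cells, beside 2647 of 11258, 2962 of 11601 and 216 of 3870 genes with an adjusted p. The interaction with Cd4 cells was called for 4 receptors in Cd8 cells (background 3.94%) and 4 in Foxp3 cells (background 7.23%).

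The Cd4 class did not hold the same mixture of cells in the groups, so the receptors were read again within the effector-positive cells. Effector-positive cells had at least 3 UMIs of Nkg7, Ccl5, Gzmk, Gzmb, Ifng, Ccl3 and Ccl4 together, a list that holds none of the 7 receptors. Effector-positive cells were 10.99% and 11.8% of the Cd4 cells in sh-NC and 66.5% and 69.6% in sh-B7-H3 (1), or 195, 173, 564 and 764 cells.

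The inducible receptors stood higher in effector-positive cells than over the whole Cd4 class in every library. Tnfrsf9 was at 223, 262, 183 and 178 CPM in effector-positive cells and at 28.3, 39.5, 128 and 128 CPM over the class. The distance was widest in the sh-NC libraries, where effector-positive cells were few. These values are a description, since the class contains the state.

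**Figure D3:**
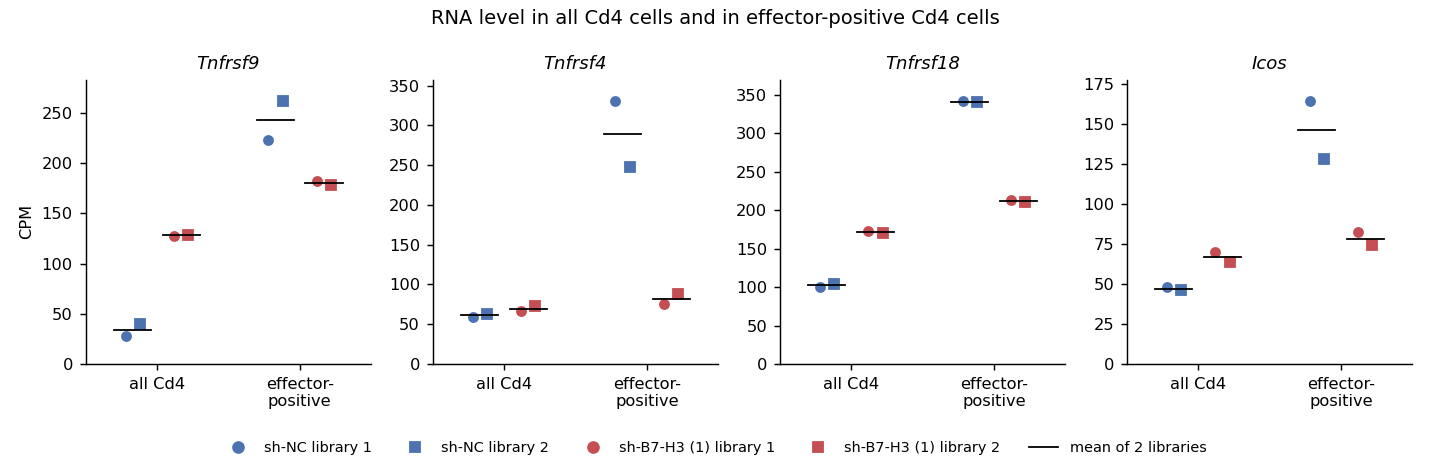
Level of Tnfrsf9, Tnfrsf4, Tnfrsf18 and Icos in all Cd4 cells and in effector-positive Cd4 cells, in CPM of the class or state. Each point is 1 library (blue sh-NC, red sh-B7-H3 (1)) and the short line is the group mean. Over the class Tnfrsf9 has its higher values in sh-B7-H3 (1), and within effector-positive cells all 4 receptors have their higher values in sh-NC, for Tnfrsf4 331 and 248 against 76.0 and 88.1.

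Within effector-positive Cd4 cells Tnfrsf18 and Icos were lower in sh-B7-H3 (1), the reverse of their order over the whole class, and Tnfrsf4 was lower as well. Tnfrsf4 was at 331 and 248 CPM in sh-NC and 76.0 and 88.1 CPM in sh-B7-H3 (1), lower by a log2 value of -1.66 (SE 0.12, adjusted p = 3.70e-07). Tnfrsf18 was at 342 and 340.5 against 213 and 211 CPM (-0.54, SE 0.08, adjusted p = 4.96e-04) and Icos at 165 and 128 against 82.4 and 74.4 CPM (-0.77, SE 0.11, adjusted p = 7.87e-04). Cd226, at 48.7 and 38.7 against 20.0 and 23.7 CPM, was lower by -0.84 (SE 0.19, adjusted p = 0.0149), a call lost without sh-NC 1 or without sh-B7-H3 (1) 1. None of these 4 receptors overlapped between the groups. This was not counted over all genes, and the calls came from the same sums, so it adds no support to them. Tnfrsf9 was at 223 and 262 against 183 and 178 CPM, a log2 difference of -0.28 (95% interval -0.48 to -0.09, adjusted p = 0.106), so its level in CPM was not higher among the effector-positive cells of sh-B7-H3 (1). It was called without sh-NC 1 (-0.42), without TMM factors (-0.43) and without cells holding myeloid or B cell markers (-0.32). Cd28 was at 134 and 125 against 89.9 and 93.7 CPM, without overlap (-0.35, adjusted p = 0.0694). It was called under 4 alternatives, at -0.50 without doublet removal, -0.47 with at least 5 effector UMIs, -0.43 without cells holding myeloid or B cell markers and -0.49 without TMM factors. With 4 of 7 receptors called, all lower, the background was 4.7% of 9448 genes, 2.66% lower. Without TMM factors the median of all genes moved by -0.14 and 138 of 856 calls were higher, against 193 of 444.

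The UMIs themselves show where the class level came from. Effector-positive cells gave 74.1% and 66.0% of the Tnfrsf9 UMIs of the Cd4 class in sh-NC and 94.8% and 96.1% in sh-B7-H3 (1), while they held 9.40%, 9.94%, 66.3% and 69.2% of all UMIs. For Tnfrsf4 the shares were 52.6%, 39.0%, 75.9% and 83.5%, for Tnfrsf18 32.1%, 32.4%, 81.8% and 86.0%, and for Icos 32.3%, 27.4%, 77.9% and 80.6%. Cd27, at 9.69%, 9.84%, 66.4% and 70.0%, followed the share of all UMIs.

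Genes of other cells were also found in effector-positive Cd4 cells, and the myeloid ones were higher in sh-NC. The 9 myeloid markers summed to 1086 and 831 CPM in sh-NC effector-positive Cd4 cells and 221 and 175 CPM in sh-B7-H3 (1), with Apoe at 697, 458, 89.1 and 98.5 CPM and Csf1r at 4.64, 3.29, 2.31 and 1.48 CPM. Without cells holding 3 or more UMIs of myeloid or B cell markers, an alternative chosen after seeing these sums, the difference was -1.84 for Tnfrsf4, -0.89 for Icos and -0.61 for Tnfrsf18, and 6 of 7 receptors were called, as were 640 of 9322 genes. The 5 regulatory markers summed to 429, 341, 362 and 354 CPM, with Ctla4 at 82.7, 59.2, 41.4 and 44.4 CPM. Without cells holding Il2ra or Ikzf2 UMIs, also added afterwards, which left 71, 84, 252 and 364 cells, the difference was -2.17 for Tnfrsf4, -1.21 for Icos, -0.79 for Tnfrsf18 and -0.85 for Cd226, all 4 called, as were 479 of 7431 genes. Over the whole Cd4 class the same exclusion gave 2.25 for Tnfrsf9, 0.58 for Tnfrsf18 and 0.34 for Icos, and the differences of Cd226 and Cd27 shrank to -0.28 and -0.062 and were no longer called.

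In Cd8 cells most of the class was effector-positive in both groups. Effector-positive cells were 80.1% and 84.4% of the class in sh-NC and 95.5% and 95.7% in sh-B7-H3 (1), and within them all 7 receptors were called, where 42.0% of all genes were called. Tnfrsf9 was at 13.02 and 13.4 CPM in sh-NC and 53.7 and 48.0 CPM in sh-B7-H3 (1) effector-positive Cd8 cells (log2 difference 1.83). These cells held 84.9%, 89.3%, 100% and 99.1% of the Tnfrsf9 UMIs of the class, so the state and the class are nearly the same sum. Tnfrsf4 (0.97), Icos (0.56), Cd28 (0.33) and Tnfrsf18 (0.22) were higher, and Cd27 (-0.32) and Cd226 (-0.17) were lower, Cd226 not being called without sh-NC 1, without sh-B7-H3 (1) 2 or without TMM factors.

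Foxp3 cells were divided by Klrg1, a receptor of activated and differentiated lymphocytes, in comparisons added after seeing the data. Klrg1-positive cells (at least 1 UMI) were 31.9% and 36.0% of Foxp3 cells in sh-NC and 48.0% and 40% in sh-B7-H3 (1). They carried more of all 4 inducible receptors than Klrg1-negative cells, with log2 differences of 1.91 for Tnfrsf9 (SE 0.14, adjusted p = 1.70e-09), 1.35 for Tnfrsf4 (SE 0.13, adjusted p = 4.82e-08), 1.33 for Tnfrsf18 (adjusted p = 7.07e-08) and 1.06 for Icos (SE 0.16, adjusted p = 2.45e-05). Cd27 was lower in Klrg1-positive cells (-0.35, SE 0.12, adjusted p = 0.0416), a call lost without sh-NC 1, without sh-B7-H3 (1) 2 or without doublet removal. In this comparison 5 of 7 receptors were called, with a background of 24.6%.

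**Figure D4:**
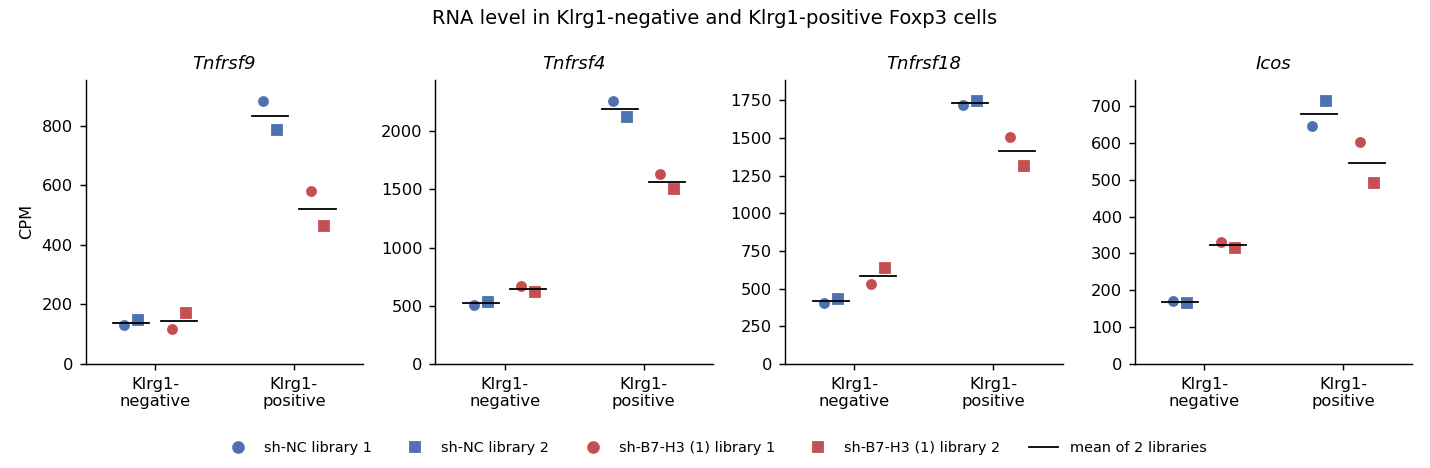
Level of Tnfrsf9, Tnfrsf4, Tnfrsf18 and Icos in Klrg1-negative and Klrg1-positive Foxp3 cells, in CPM of the state. Each point is 1 library (blue sh-NC, red sh-B7-H3 (1)) and the short line is the group mean. Icos in Klrg1-negative cells is at 172 and 164 in sh-NC and 332 and 316 in sh-B7-H3 (1), and Tnfrsf4 in Klrg1-positive cells at 2262 and 2119 against 1629.9 and 1505.

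Within these states, receptors called in Klrg1-negative cells were higher in sh-B7-H3 (1) and those called in Klrg1-positive cells were lower, with Tnfrsf4 called in both. In Klrg1-negative cells Icos was at 172 and 164 CPM in sh-NC and 332 and 316 CPM in sh-B7-H3 (1) (log2 difference 0.91, SE 0.11, adjusted p = 2.04e-08), Tnfrsf18 at 407 and 432 against 534 and 639 CPM (0.45, SE 0.09, adjusted p = 2.62e-04) and Tnfrsf4 at 506 and 534 against 667 and 619.8 CPM (0.27, SE 0.08, adjusted p = 0.0293). In Klrg1-positive cells Tnfrsf9 was at 883 and 784 against 579 and 463 CPM (-0.56, SE 0.11, adjusted p = 3.45e-04) and Tnfrsf4 at 2262 and 2119 against 1629.9 and 1505 CPM (-0.36, SE 0.08, adjusted p = 0.00359), while Icos (-0.19, adjusted p = 0.580) and Tnfrsf18 (-0.17, adjusted p = 0.464) were not called. Tnfrsf9 was not called in Klrg1-negative cells (0.03, adjusted p = 0.956). The groups did not overlap for any of the 5 called differences. This was not counted over all genes, and the calls came from the same sums, so it adds no support to them. The background was 6.4% for the 3 receptors called in Klrg1-negative cells (3.33% higher) and 1.55% for the 2 called in Klrg1-positive cells (0.368% lower). In Klrg1-positive cells the split of all calls turned with the scaling, from 77 higher and 24 lower with TMM factors to 36 higher and 48 lower without them, where the median of all genes moved by -0.12.

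By the interaction term, the group difference in Klrg1-positive cells was lower than that in Klrg1-negative cells by -1.10 for Icos (SE 0.16, adjusted p = 6.21e-05), -0.63 for Tnfrsf4 (SE 0.13, adjusted p = 0.00340) and -0.62 for Tnfrsf18 (SE 0.14, adjusted p = 0.00921), with a background of 2.55%, and was not called for Tnfrsf9 (-0.58, SE 0.21, adjusted p = 0.167), except without sh-B7-H3 (1) 1, where it was -0.95 and called. The call of Icos held when each library was left out, that of Tnfrsf4 was lost without sh-NC 1, and that of Tnfrsf18 was lost without any one of sh-NC 1, sh-NC 2 and sh-B7-H3 (1) 2. The separate calls of Tnfrsf4 were lost without sh-NC 1 in both states, without sh-B7-H3 (1) 1 in Klrg1-negative cells and without doublet removal in both. That of Tnfrsf9 in Klrg1-positive cells was lost without sh-B7-H3 (1) 2 (-0.42), as was that of Tnfrsf18 in Klrg1-negative cells (0.31). The library sh-NC 1 held more myeloid RNA in both states, with marker sums of 661, 70.0, 189 and 289 CPM in Klrg1-positive and 837, 153, 146 and 140.0 CPM in Klrg1-negative cells. Without cells holding 3 or more UMIs of myeloid or B cell markers, an alternative added after seeing the data, the same 5 differences were called. They were -0.55 for Tnfrsf9 and -0.34 for Tnfrsf4 in Klrg1-positive cells, where 110 of 6275 genes were called, and 0.86 for Icos, 0.49 for Tnfrsf18 and 0.30 for Tnfrsf4 in Klrg1-negative cells, where 514 of 7688 were. The interaction terms were not fitted without these cells.

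Cell by cell, after thinning each cell to 2000 UMIs, Tnfrsf9 was detected in 3.78% and 4.77% of sh-NC and 15.6% and 16.0% of sh-B7-H3 (1) Cd4 cells (7.44%, 9.59%, 27.9% and 27.9% unthinned). The exact 95% binomial intervals at 2000 UMIs, which cover counting error only, were 2.94% to 4.78%, 3.73% to 5.98%, 13.2% to 18.2% and 13.9% to 18.4%. Tnfrsf18 was detected in 16.7% and 17.5% against 26.7% and 25.6% of Cd4 cells, and Cd28 in 22.02% and 24.1% against 17.5% and 18.6%. Over the 21 pairs of receptor and class the shares of the groups did not overlap in 17. With 2 libraries against 2, however, an exact two-sided permutation test cannot give a p below 0.333. The count was not made over all genes, so it is not read as a result about the receptors. Macrophage-marker cells (at least 5 C1q UMIs and no Cd3) were taken as the background, and whether they make these receptors was not tested. Of them 11, 11, 39 and 25 cells were deep enough. Tnfrsf9 was found in 1 of 11 cells of sh-NC 1 (9.09%) and 1 of 39 of sh-B7-H3 (1) 1, while Tnfrsf4 was found in none. A count of 0, taken to allow 3 counts, limits the share to 7.69% for 39 cells and 27.3% for 11. The median depth of these macrophage-marker cells before thinning was 4042, 4858, 2656 and 2775 UMIs, against 7537, 8069, 6848 and 7031.5 in Cd4 cells. In sh-NC 2, Cd27 was found in 2 and Cd28 and Cd226 in 1 each of the 11 macrophage-marker cells (18.2% and 9.09%). In sh-B7-H3 (1), Tnfrsf18 and Cd27 were each found in 1 of 39 cells of the first library and Icos in 1 of 25 of the other. So few cells bound the background loosely. The sh-NC shares of Tnfrsf9 in Cd4 cells and all its shares in Cd8 cells (1.77% and 1.78% against 7.73% and 6.53%) lie under 9.09%. All Cd8 shares of Tnfrsf4 (0.385% and 0.825% against 1.71% and 1.88%) lie under 7.69%. Cd226 in Cd4 cells, with mean shares of 7.22% in sh-NC and 4.86% in sh-B7-H3 (1), lies under its macrophage-marker share of 9.09%. The 27.3% limit of 11 cells also lies above the Tnfrsf9 shares of sh-B7-H3 (1) Cd4 cells and of effector-positive Cd4 cells. It lies above the mean shares of Tnfrsf4, Tnfrsf18, Icos, Cd28 and Cd226 in Cd4 and Cd8 cells of both groups. This limit comes from the small number of sh-NC macrophage-marker cells, and against it none of these shares can be told apart from the background. The same caution holds for the CPM differences of the low levels among them. The 39 and 25 macrophage-marker cells of sh-B7-H3 (1) gave mean shares of 1.28% for Tnfrsf9 and for Tnfrsf18. In Cd4 cells of that group the mean shares were 15.8% and 26.1%, and the distance was not tested. In effector-positive Cd4 cells Tnfrsf9 was detected in 19.0% and 20.9% of sh-NC and 22.7% and 21.1% of sh-B7-H3 (1) cells, where the groups did not overlap at 2000 UMIs but did without thinning and without doublet removal.

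The receptors were found together in the same cells most often in the Foxp3 class. At 2000 UMIs at least 3 of the 7 were detected in 50.4%, 56.4%, 55.3% and 61.4% of Foxp3 cells, 7.17%, 7.56%, 10.9% and 11.8% of Cd4 cells and 2.74%, 2.69%, 5.04% and 4.14% of Cd8 cells. Among Foxp3 cells the share with at least 3 was 91.9% and 93.1% of the Klrg1-positive cells in sh-NC and 80.0% and 74.5% in sh-B7-H3 (1). Among effector-positive Cd4 cells it was 27.2% and 24.4% in sh-NC and 12.996% and 13.6% in sh-B7-H3 (1). In both of these states the sh-NC libraries lay above the sh-B7-H3 (1) libraries without overlap. In Klrg1-negative Foxp3 cells the order was the opposite, with 34.7% and 37.1% in sh-NC and 42.0% and 45.5% in sh-B7-H3 (1). Tnfrsf4 and Tnfrsf18, the chromosome 4 neighbours, were detected together in 47.0% to 57.6% of Foxp3 cells, 1.22 to 1.28 times the product of their separate shares, and in 3.78% to 6.03% of Cd4 cells, 2.10 to 3.38 times that product. Pairs that are not neighbours reached similar or higher ratios, with 1.29 to 1.53 for Tnfrsf4 and Tnfrsf9 in Foxp3 cells and 2.53 to 4.91 for Tnfrsf4 and Icos in Cd4 cells. The largest ratio a pair can reach depends on the separate shares of its receptors, so the pairs are not ranked by it.

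At the cell surface, GITR and ICOS tags were higher on Foxp3 than on Cd4 cells in every library. GITR tags averaged 165, 154, 177 and 114 per Foxp3 cell, 41.9, 42.0, 55.5 and 46.3 per Cd4 cell, 26.4, 23.6, 26.7 and 17.3 per Cd8 cell and 4.59, 3.61, 5.14 and 5.00 per macrophage-marker cell. ICOS tags averaged 21.7, 22.2, 21.6 and 14.1 per Foxp3 cell and 7.26, 6.50, 5.86 and 3.91 per Cd4 cell, with 3.09, 2.09, 3.09 and 2.06 on macrophage-marker cells. The OX-40 tag was at 17.999, 15.5, 18.8 and 13.5 per Cd4 cell and 17.5, 14.2, 18.03 and 12.8 per macrophage-marker cell. The CD137 tag was at 12.6, 11.9, 20.3 and 13.9 per Cd4 cell against 12.5, 11, 14.7 and 10.9. On Cd8 cells these 2 tags stayed near their background, as did OX-40 on Cd4 cells. CD137 on Cd4 cells stayed near its background in the sh-NC libraries and lay above it in the knockdown libraries. In Foxp3 cells both tags lay above their background, OX-40 at 31.4, 29.4, 26.3 and 18.7 and CD137 at 31.3, 27.0, 26.0 and 17.4. CD28 tags averaged 41.7, 39.7, 36.4 and 25.8 per Foxp3 cell, with 16.1, 14.0, 18.1 and 12.6 on macrophage-marker cells. CD226 tags averaged 3.10, 2.64, 3.76 and 2.43 per Foxp3 cell, with 2.23, 1.78, 2.76 and 2.08 on macrophage-marker cells. CD28 tags of Cd4 and Foxp3 cells overlapped, as did CD226 tags. These class levels are given without a test.

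**Figure D5:**
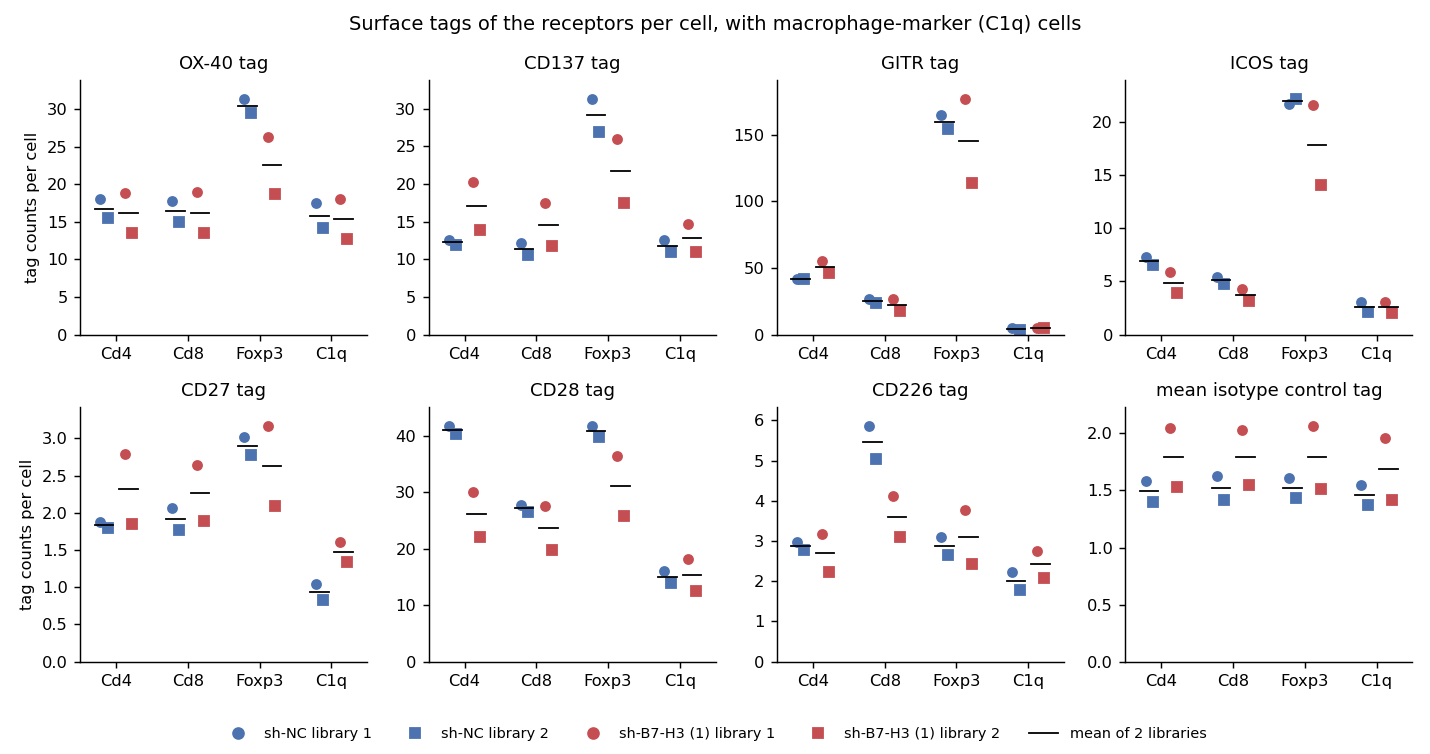
Mean antibody tag counts per cell for the 7 receptors and the mean of the isotype control tags, in Cd4, Cd8, Foxp3 and macrophage-marker (C1q) cells. Each point is 1 library (blue sh-NC, red sh-B7-H3 (1)). GITR reaches 114 to 177 per Foxp3 cell and stays at 3.61 to 5.14 on macrophage-marker cells. OX-40 on Cd4 and Cd8 cells and CD137 on Cd8 cells lie near their macrophage-marker level. CD137 on Cd4 cells lies near that level in sh-NC and above it in sh-B7-H3 (1).

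Between the groups, tag differences depended on the scaling. Against TMM factors, library totals moved the median log2 difference of all 197 tags by 0.25 in Cd4, 0.40 in Cd8 and 0.30 in Foxp3 cells. A tag is therefore given as lower or higher where it was called in 1 direction under TMM factors, library totals and isotype control scaling alike. In Cd4 cells CD28 tags were lower in sh-B7-H3 (1), at 41.7 and 40.3 against 30.0 and 22.1 per cell (log2 difference -0.81 with TMM factors, adjusted p = 0.00244 by edgeR over the 197 tags, and -0.56 and -0.92 under the other scalings). ICOS tags in Cd4 cells were lower too, at 7.26 and 6.50 against 5.86 and 3.91 (-0.66, adjusted p = 0.00303, and -0.41 and -0.77), while the Icos mRNA of these cells was higher. In Cd8 cells the same held for ICOS, at 5.38 and 4.79 against 4.25 and 3.13 tags per cell (-0.58, adjusted p = 4.79e-04, and -0.18 and -0.70). CD226 tags in Cd8 cells were at 5.87 and 5.04 against 4.13 and 3.09 (-0.71, adjusted p = 5.01e-04, and -0.31 and -0.83).

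With TMM factors 5 of 7 tags were called in Cd4 cells (background 51.3%), 6 of 7 in Cd8 cells (background 60.9%) and 5 of 7 in Foxp3 cells (background 42.1%). By library totals none of the 7 was called in Foxp3 cells, where 128 of all 197 tags were (edgeR, with 136 of all tags at an unadjusted p under 0.05). The CD137 tag, the protein of Tnfrsf9, had positive differences under all 3 scalings, called under 2 of them, with 0.31, 0.57 and 0.21 in Cd4 cells and 0.23, 0.63 and 0.12 in Cd8 cells (TMM factors, library totals and isotype scaling, the last not called). The Cd4 call of the CD137 tag was lost without sh-NC 1 (0.28) and without sh-B7-H3 (1) 1 (0.28). In Foxp3 cells the differences of CD28 (-0.47, -0.16 and -0.63), CD137 (-0.51, -0.20 and -0.67), OX-40 (-0.51, -0.20 and -0.67) and ICOS (-0.39, -0.079 and -0.55) kept their sign but were not called by library totals. The GITR tag in effector-positive Cd4 cells, at 111 and 116 against 72.7 and 58.7 per cell, did not overlap between groups (-0.83 with TMM factors and -1.01 with isotype scaling, both called, and -0.33, not called, by library totals), in a comparison added after seeing the RNA values, where 2 of 7 tags were called and the background was 48.7%. The call with TMM factors was lost without sh-B7-H3 (1) 1 (-0.75), without sh-B7-H3 (1) 2 (-0.91) and with the replicate block (-0.83).

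The genes around the receptors were read from fixed lists of 9 ligands, 22 adaptors and proximal signalling genes, 4 inhibitory counterparts and 13 other costimulatory receptors. All 4 inhibitory counterparts were called and higher in sh-B7-H3 (1) in both conventional classes, where 42.4% of all genes in Cd4 and 43.6% in Cd8 cells were called, with log2 differences in Cd4 and Cd8 cells of 2.65 and 2.48 for Tigit, 2.05 and 2.05 for Pvrig, 1.13 and 1.89 for Ctla4 and 0.56 and 0.30 for Cd96. Tigit and Cd96 share ligands with Cd226, and Ctla4 shares Cd80 and Cd86 with Cd28. In Foxp3 cells only Tigit was called among them (1.19). Of the adaptors, 12 of 22 were called in each conventional class, 3 higher and 9 lower (54.5% of the list), with Sh2d2a (a T cell adaptor) at 1.04 and 0.97 and the protein kinase C gene Prkcq, which acts below Cd28, at -0.78 and -0.49 in Cd4 and Cd8 cells. In Foxp3 cells, where 7.04% of all genes were called, 2 of 22 adaptors were called, both lower, the NF-kappaB subunit gene Rel (-0.55) and Prkcq (-0.51).

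Of the ligand genes, 5 passed the filter in Cd4 cells and 4 were called, all higher (Cd80 2.64, Tnfsf9 1.23, Icosl 0.87 and Cd86 0.53), 4 of 6 were called in Cd8 cells with 3 higher, among them the OX-40 ligand gene Tnfsf4 (2.84), and 1 lower (Icosl, -0.81), and none of 4 was called in Foxp3 cells by edgeR, where 0 had an unadjusted p under 0.05 (no DESeq2 count was made for this list). Of the other costimulatory receptors, 9 of 12 were called in Cd4 cells (4 higher, 5 lower) and 10 of 12 in Cd8 cells (6 higher, 4 lower), against the same 42.4% and 43.6%, with Cd244a (2.85 and 2.32), the killer cell receptor gene Klrk1 (1.95 and 1.39) and the TNF receptor gene Tnfrsf1b (1.70 and 1.64) highest among those rising in both and Tnfrsf25 lower in Cd8 cells (-1.02). In Foxp3 cells 3 of 10 were called, Tnfrsf1b (0.74) and Cd244a higher, the latter from too few UMIs to give a size, and Slamf6 (-0.58) lower, against 7.04% of all genes. The sum of the myeloid markers, cells that also make Cd80 and Cd86, was 217, 148, 229.6 and 138 CPM in Cd4 and 83.6, 119, 163 and 142 CPM in Cd8 cells, and its part in the ligand values was not tested.

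Over the 12 sums of class and library, the genes whose log2 levels followed each receptor most closely, out of 4599 genes that averaged 20 CPM or more, were chosen by Pearson correlation. Tnfrsf4 was followed by Nrip1 (Pearson r 0.992), Cd81 (0.989) and Izumo1r (0.987), and Tnfrsf9 by Ikzf4 (0.996), Sdcbp2 and Nrp1 (0.989). Tnfrsf18 and Icos followed each other (0.992) and both had Ubl3 among their 3 nearest genes. Cd28 was nearest to Rasgrp1 (0.984) and Cd226 to Sec61b (0.954), while the nearest gene of Cd27, Srsf10, reached 0.929. These values describe sums that share libraries and 3 classes, and carry no p.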

How the data were processed

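Single T cells of 4 libraries were measured for RNA and antibody tags. The deposited values are UMI counts per gene or tag and cell, which the authors made with Cell Ranger (filtered table header 6.1.1, raw table header 4) on mm10, and Seurat 4.0.0 is named in the labels. The receptors, gene lists and states were chosen with earlier results of these data known. From the filtered counts, cells were limited to 200 to 3000 genes and at most 5% mitochondrial UMIs. These limits left 7549 of 12112, 6233 of 10589, 3499 of 7030 and 4619 of 9129 barcodes. Of the cells within them, 14.1% to 17.9% were removed as doublets, scored against simulated doublets, and the rest were kept. The Cd4, Cd8 and Foxp3 classes also needed at least 1 Cd3 UMI. The authors also removed doublets, by a method not given in the sources used here, so these cells are not their set. Counts were summed per library and class or state, filtered by filterByExpr and tested over all genes with the edgeR 4.0.16 quasi-likelihood test (TMM factors, R 4.3.3), and genes with a Benjamini-Hochberg adjusted p under 0.05 were called. DESeq2 1.42.0 was an alternative, with others on doublets, mitochondrial share, lineage rule, scaling, filters, blocks and each library left out. The tests were checked on simulated data. Named genes were all 7 receptors, up to 4 called genes per list and comparison with the largest difference, and the 3 genes most like each receptor. Levels are plain CPM. Tables and figures used Python 3.11.15. Same-numbered libraries did not pair: the correlation of their deviations was 0.0032 in Cd4, -0.14 in Cd8 and -0.042 in Foxp3 cells. Promoters came from RefSeq, where Tnfrsf4, Tnfrsf9, Tnfrsf18 and Cd27 were found, and coordinates from GENCODE. Planned comparisons with a further cell state are not reported here.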

Additional observations from a re-analysis of the deposited data

Results flagged for a closer look

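The group differences of 11 receptor and cell pairs were singled out because an interaction term found them to differ between classes or states (edgeR quasi-likelihood test, Benjamini-Hochberg adjustment over all genes). Against Cd4 cells, the Cd8 difference was higher by 0.92 for Tnfrsf4, 0.90 for Cd28 and 0.47 for Cd226 and differed by -0.40 for Tnfrsf18 (log2). Against Cd4 cells, the Foxp3 difference departed by -1.95 for Tnfrsf9, -0.39 for Tnfrsf18, 0.62 for Cd28 and 1.04 for Cd226. Of these, Tnfrsf9, Tnfrsf18 and Cd28 kept their calls when each library was left out, and Tnfrsf4 and Cd226 did not. Effector-positive cells were 10.99% and 11.8% of the Cd4 class in sh-NC and 66.5% and 69.6% in sh-B7-H3 (1). Within them Tnfrsf4 and Tnfrsf18 were lower in sh-B7-H3 (1). The part of this mixture in the interaction terms was not tested.

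Among Foxp3 cells, the difference in Klrg1-positive cells departed from that in Klrg1-negative cells by -1.10 for Icos, -0.63 for Tnfrsf4 and -0.62 for Tnfrsf18, in comparisons added after seeing the data. Of these 3, Icos alone kept its call when each library was left out.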

How the results depend on the processing

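If the libraries of a group are lanes of 1 pool, pool, sort and hairpin cannot be told apart. States are defined by RNA, and shallow cells can be misplaced. Low receptors, such as Tnfrsf4 in Cd8 cells, rest on few UMIs. Over the receptors, 288 of the values with a library left out and 492 of those under other settings kept their direction and call or, where called in neither case, stayed within 1 SE, 25 and 16 lost the call, 6 and 18 gained one, and 45 and 20 that were called in neither case moved by at least 1 SE. The cause of the changes below was not tested. Tests of tags between classes, added after seeing the data, are not reported.

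In Cd4 cells 2173 genes were called without Il2ra and Ikzf2 cells, 2647 with DESeq2 and 1204 at a log2 difference of at least 1 (1 receptor). In Cd8 cells these were 2962 with DESeq2 and 1073 at that fold (2 receptors). In Foxp3 cells 305 were called with at least 2 Foxp3 UMIs (1 receptor), 333 (without sh-NC 1) to 486 with a library left out, 216 with DESeq2 and 120 at that fold (0 receptors). In effector-positive Cd4 cells leaving out a library gave 189 (without sh-B7-H3 (1) 2, with 255 without sh-B7-H3 (1) 1) to 562, and library totals gave 856. In Klrg1-positive cells 62 were called without doublet removal (1 receptor), and leaving out sh-NC 1 or sh-B7-H3 (1) 2 left 1 receptor, otherwise 2. In Klrg1-negative cells 308 (without sh-NC 1) to 419 were called with a library left out. Between Foxp3 and Cd4 cells 2047 were called without the library block, 1211 at that fold and 7 receptors by library totals. Between Cd8 and Cd4 cells leaving out a library gave 1526 (without sh-NC 2, with 1580 without sh-NC 1) to 2062, dropping the library block 644 and that fold 630 (3 receptors). The Cd8 interaction gave 216 (without sh-B7-H3 (1) 2, with 254 without sh-B7-H3 (1) 1 and 297 without sh-NC 1) to 356 with a library left out (2 to 4 receptors, 2 without sh-B7-H3 (1) 1), 102 with DESeq2 (2 receptors) and 112 at that fold (0 receptors). The Foxp3 interaction gave 478 (without sh-B7-H3 (1) 2, with 504 without sh-B7-H3 (1) 1) to 677 with a library left out, 454 with DESeq2 and 331 at that fold (2 receptors). Between Klrg1 states 1126 (without sh-NC 1) to 1812 were called with a library left out, and their interaction gave 45 (without sh-NC 1, with 48 without sh-NC 2 and 117 without sh-B7-H3 (1) 2) to 187 (1 to 4 receptors, 1 without sh-NC 1).

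Of the tags, Cd4 cells gave 66 (without sh-B7-H3 (1) 1) to 98 with a library left out (2 to 5 receptors, 2 without sh-B7-H3 (1) 1 and 3 without sh-NC 1 or sh-B7-H3 (1) 2). Foxp3 cells gave 55 with the replicate block (3 receptors), 128 by library totals (0 receptors) and 3 (without sh-NC 2) to 5 receptors with a library left out. Effector-positive Cd4 cells gave 37 (without sh-B7-H3 (1) 2, with 39 without sh-B7-H3 (1) 1) to 88 with a library left out (0 to 4 receptors, 0 without either sh-B7-H3 (1) library), 26 with the block (0 receptors), 151 by library totals, and 4 receptors without doublet removal or with isotype scaling. By library totals tags reversed for CD226 (0.00083) and OX-40 (0.043) in Cd4 cells, CD28 (0.075), GITR (0.080) and OX-40 (0.26) in Cd8 cells, CD27 (0.086) in Foxp3 cells, and CD28 (0.019), CD226 (0.41) and OX-40 (0.39) in effector-positive Cd4 cells. Library totals raised the share of higher genes among calls from 50.9% to 66.3% in Cd4 and from 50.6% to 67.1% in Cd8 cells.

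Same-numbered libraries share only a number. With the replicate block 4535 genes were called in Cd4 cells (6 receptors), 5087 in Cd8 cells (7 receptors), 477 in Foxp3 cells (2 receptors) and 448 in effector-positive Cd4 cells (4 receptors), and the crossed pairing, added after seeing the data, gave 5160 in Cd8 cells (7 receptors).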

Other observations

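Between classes, the genes around the receptors also differed. Between Foxp3 and Cd4 cells 16 of 22 adaptors were called, 9 higher and 7 lower, with Traf1 (log2 difference 1.60) and Nfkb2 (1.22) higher and Traf5 (-1.05) lower in Foxp3 cells, where 30.3% of all genes were called. Tnfrsf8, the gene of the TNF receptor CD30, was higher in Foxp3 cells (4.18), as was Ctla4 (3.64), while Cd244a (-3.10), Crtam (-2.92) and Klrk1 (-2.54) were lower. Between Cd8 and Cd4 cells 6 of 22 adaptors were called, 3 in each direction, where 20.0% of all genes were called. Cd40lg, the helper ligand of Cd4 cells, was lower in Cd8 cells (-4.92), as was the Cd27 ligand gene Cd70 (-3.82), and Klrk1 (2.76) and Crtam (2.13) were higher.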
